A study of Homo sapiens with 36 samples.

Results

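Both arms of miR-21 and miR-22 were followed across proliferating and senescence-induced WI-38 cells. The members are the 4 mature miRNAs hsa-miR-21-5p, hsa-miR-21-3p, hsa-miR-22-3p and hsa-miR-22-5p, taken by name from a table of 1508 mature miRNAs. All 4 passed the low-count filter, as did 360 of the 1508 miRNAs, and all 4 were tested. The names were not chosen from measured values, but they were set with earlier results of these data known. Small RNA was sequenced from 36 libraries, 2 biological replicates in each of 18 conditions. WI-38 is a line of normal human lung fibroblasts, and every library is a bulk RNA sample of such cells. Ctrl cells were young, proliferating and untreated. PMD-Sen cells, in which senescence depends on plasma membrane damage, were treated for a day with SDS, a detergent, which was then washed away. DDR-Sen cells, in which senescence depends on the DNA damage response, were treated for a day with DXR (doxorubicin), a drug that damages DNA, which was then washed away. Both treated series were collected at the end of treatment (D0) and on 7 later days counted from washout (D1 to D4, D6, D8 and D16). RS cells had reached replicative senescence by serial passage. The line is a single normal strain, so the replicates do not sample other donors.

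Library totals ran from 81668 counts (PMD-Sen D0 replicate 2) to 1933435 counts (PMD-Sen D16 replicate 1), and their median was 376989. The summed level of 4 fibroblast-enriched miRNAs was 6486 to 22564 CPM (counts scaled to a library of fixed size), and that of 4 haematopoietic miRNAs was 0 to 13.3 CPM. Epithelial markers summed to 16.1 to 173 CPM over 5 miRNAs, the liver marker miR-122-5p to 6.16 to 279 CPM, muscle markers to 0 to 40.1 CPM over 3 miRNAs and neural markers to 0 to 15.8 CPM over 2 miRNAs. In bulk RNA, fewer cells that carry a miRNA and less of it in each cell cannot be told apart.

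A miRNA hairpin is cut into a duplex whose 2 strands, the 5p and the 3p arm, are named by their side of the hairpin. One strand is usually kept in Argonaute as the guide that represses mRNAs through its seed, and the other is mostly degraded. miR-21-5p is the guide of its hairpin and is among the most abundant miRNAs of fibroblasts, where it is known for repression of negative regulators of growth and TGF-beta signalling and for its link to fibrosis. miR-22-3p is the guide of its hairpin and is known as a miRNA that can induce senescence in human fibroblasts.

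Both hairpins lie on chromosome 17 of GRCh38. In GENCODE the miR-21 hairpin (gene MIR21) is at chr17:59841266-59841337 on the plus strand, inside VMP1, a protein-coding gene at chr17:59707192-59842255 on the same strand. An exon of 10 of the 20 VMP1 transcripts holds the whole hairpin, and in 8 transcripts that stretch is annotated as UTR. The miR-22 hairpin (gene MIR22) is at chr17:1713903-1713987 on the minus strand, within MIR22HG, a long non-coding RNA gene at chr17:1711447-1717174, and an exon of 30 of its 32 transcripts holds it. The mature sequences are shown, from RefSeq on GRCh38.p14 and 5′ to 3′, because the seed (bases 2 to 8, in capitals) decides which mRNAs a miRNA can pair with. RefSeq gave a sequence for 3 of the 4 members.
hsa-miR-21-5p: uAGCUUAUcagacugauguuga
hsa-miR-22-3p: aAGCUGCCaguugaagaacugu
hsa-miR-22-5p: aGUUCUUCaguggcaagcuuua
hsa-miR-590-5p: gAGCUUAUucauaaaagugcag
The genomic positions are chr17:59841273-59841294 for miR-21-5p, chr17:1713914-1713935 for miR-22-3p and chr17:1713952-1713973 for miR-22-5p. No 2 of the 3 printed members have the same seed. Of the 1317 miRNAs in the table whose sequence could be matched, 1 shares a seed with any of the 3 printed members. miR-21-3p had no sequence here, so its seed was not compared. It is miR-590-5p (chr7:74191213-74191234), which has the seed of miR-21-5p and the same letter as miR-21-5p at 8 of 22 positions counted from the 5′ end. miR-590-5p had 0 counts in 34 of the 36 libraries and at most 1 count in any library, so among the matched miRNAs the counts of this seed were nearly all those of miR-21-5p.

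The guide arms were far more abundant than their partners in every library. miR-21-5p took 3.94% to 10.5% of the counts of a library (median 6.21%) and ranked 2 to 6 among the miRNAs of its library. Its level ran from 37243 CPM to 103019 CPM, a range of 2.77-fold. miR-22-3p took 0.747% to 1.86% of the counts and ranked 16 to 30, at 7290 CPM to 16701 CPM. The partner arms were scarce. miR-21-3p had 13 to 652 counts per library (95.3 CPM to 367 CPM, rank 117 to 197), and miR-22-5p had 17 to 796 counts (138 CPM to 445 CPM, rank 110 to 173). The values of the partner arms therefore rest on few reads, above all in the PMD-Sen D0 libraries, where miR-21-3p had 13 and 33 counts. In the first of these libraries miR-21-3p was 0.0124% of all counts (95% Wilson interval 0.00727% to 0.0213%), an interval that covers counting error only, since PCR reads are not independent molecules.

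**Figure D1:**
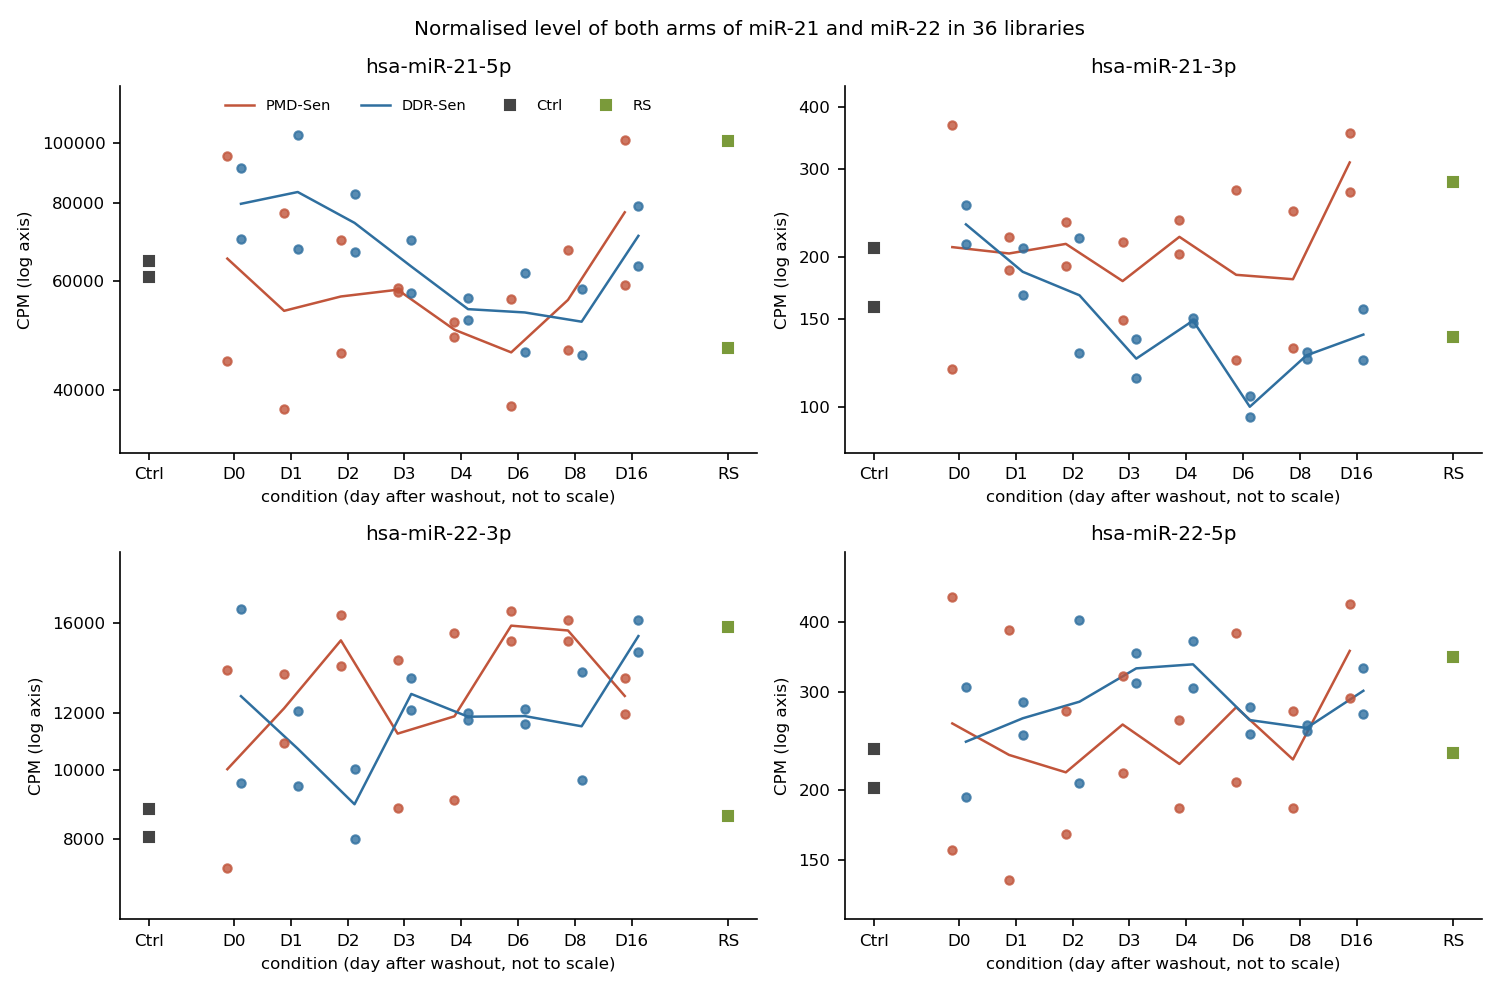
CPM on a log axis for each of the 4 miRNAs in Ctrl, in PMD-Sen and DDR-Sen by day and in RS, with points and squares for single libraries (2 per condition) and lines through the means of log values. The 2 Ctrl libraries of miR-22-3p, at 8068 and 8818 CPM, lie below 31 of the 34 other libraries, and miR-21-3p is lower in DDR-Sen than in PMD-Sen from D3 on.

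The spread between replicates was wide for these miRNAs and has to be set beside every level. The median over conditions of the SD of log2 CPM (n = 2) was 0.28 for miR-21-5p, 0.22 for miR-21-3p, 0.20 for miR-22-3p and 0.40 for miR-22-5p. When the 18 conditions were put in order of their mean level, neighbours in that order were farther apart than the larger of their SDs in 1 of 17 steps for miR-21-5p, in 1 of 17 for miR-21-3p and in 0 of 17 for each arm of miR-22. The order of most conditions is therefore not resolved.

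In 4 conditions (PMD-Sen D0, D1 and D6, and RS) the replicates differed by more than 1 on the log2 scale for at least 1 member. In RS, miR-21-5p had 46718 and 100902 CPM in replicates 1 and 2, and miR-22-3p had 8627 and 15783 CPM. In RS all 4 members were higher in replicate 2. At PMD-Sen D0, miR-21-5p had 44428 and 95365 CPM, miR-21-3p 119 and 367 CPM and miR-22-5p 156 and 445 CPM, so that all 3 were higher in replicate 2. miR-22-3p went the other way there, with 13754 and 7289.5 CPM. At PMD-Sen D1, miR-21-5p had 77166 and 37243 CPM and miR-22-5p 388 and 138 CPM, with replicate 1 the higher. At PMD-Sen D6, miR-21-3p had 273 and 124 CPM, again higher in replicate 1. At PMD-Sen D16, where the replicate totals differed most, miR-21-5p had 101307 and 59001 CPM.

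The replicate differences were shared between some members. Across the 18 conditions, the log2 difference of replicate 1 from replicate 2 in miR-21-5p had a Pearson r of 0.77 with that in miR-21-3p and of 0.75 with that in miR-22-5p. The r between miR-21-3p and miR-22-5p was 0.67. For miR-22-3p it was 0.01 with miR-21-5p, 0.11 with miR-21-3p and 0.05 with miR-22-5p. In each condition the values come from the same 2 libraries, so these are descriptions of the libraries. The part of replicate quality in the results below was not tested.

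**Figure D2:**
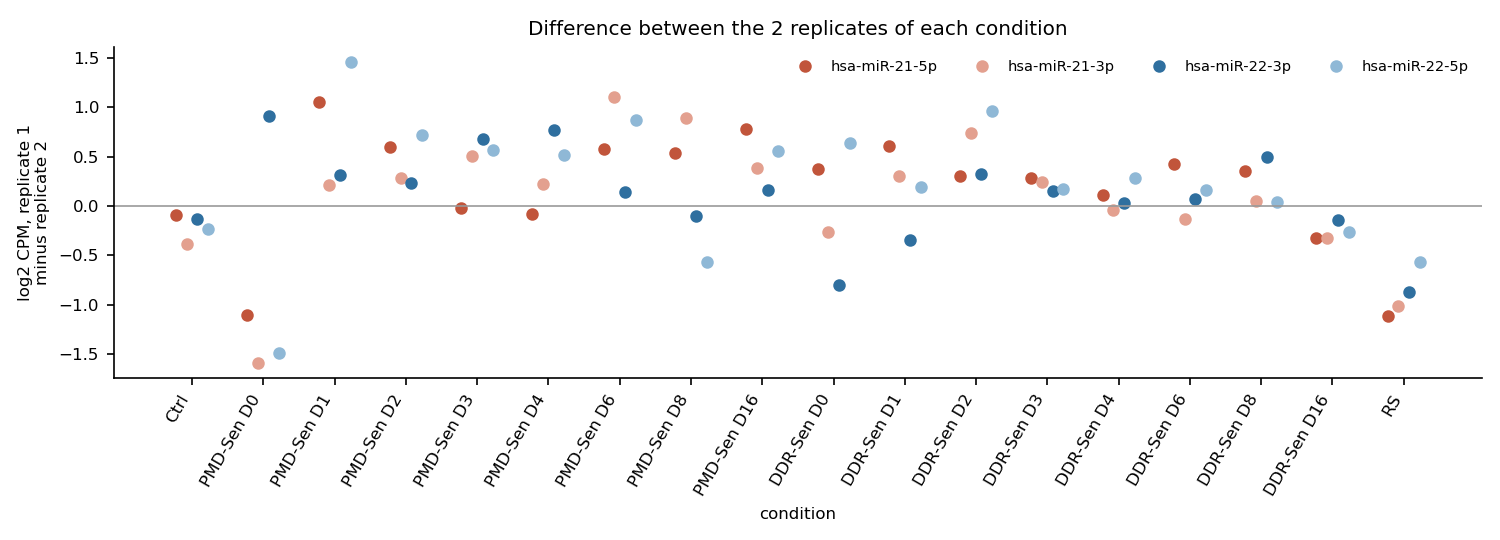
Log2 CPM of replicate 1 minus that of replicate 2 (vertical axis) in each of the 18 conditions, with a point for each member. In RS all 4 points lie below 0, and at PMD-Sen D0 miR-22-3p lies above 0 while the other 3 members lie at -1.10 or lower.

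The first comparison asks whether a member differed between senescence-induced and proliferating cells. Among the 4 members, miR-22-3p was the one with calls. It was lowest in Ctrl among the 18 condition means, and its log2 fold change against Ctrl was above 0 in 17 of 17 comparisons, from 0.09 (DDR-Sen D2) to 0.91 (PMD-Sen D6). Its rise passed the test at PMD-Sen D8 and at DDR-Sen D16. All comparisons with Ctrl share the same 2 Ctrl libraries, so the 17 values are not independent of each other, and 10.6% of all tested miRNAs had 17 positive values.

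In Ctrl, miR-22-3p stood at 8068 and 8818 CPM. In PMD-Sen the 2 libraries had 13754 and 7289.5 CPM on D0, 13592 and 10896 on D1, 16405 and 13946 on D2 and 14219 and 8855 on D3. They had 15509.6 and 9070.3 CPM on D4, 16639 and 15110.1 on D6, 15087 and 16156 on D8 and 13394 and 11965 on D16. From D1 on every PMD-Sen library was above both Ctrl libraries. The smallest margins were at D3 and D4, where replicate 2 was close to the higher Ctrl library. In DDR-Sen the levels were 9584 and 16701 CPM on D0, 9492 and 12047 on D1, 10015 and 7998 on D2 and 13409 and 12107 on D3. They were 11987 and 11706 CPM on D4, 12155 and 11589.7 on D6, 13651 and 9668 on D8 and 14584 and 16125 on D16. DDR-Sen D2 was the DDR-Sen time point whose libraries overlapped Ctrl. Both libraries lay above both Ctrl libraries in 14 of the 17 conditions, a count that 6.67% of all tested miRNAs reached or passed, and the exceptions were PMD-Sen D0, DDR-Sen D2 and RS.

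By the quasi-likelihood test of edgeR, with p-values adjusted by Benjamini-Hochberg, miR-22-3p was higher than Ctrl at PMD-Sen D8 by 0.89 on the log2 scale (SE 0.29, n = 2 per group, adjusted p = 0.0466). At DDR-Sen D16 it was higher by 0.86 (SE 0.29, edgeR adjusted p = 0.0296). PMD-Sen D6 had the largest difference and missed the threshold (0.91, SE 0.29, edgeR adjusted p = 0.0539). At PMD-Sen D16 the difference was 0.59 (edgeR adjusted p = 0.147), and in RS it was 0.53 (edgeR adjusted p = 0.197). Both calls were lost when any 1 of their 4 libraries was left out. Without Ctrl replicate 1, Ctrl replicate 2, PMD-Sen D8 replicate 1 and PMD-Sen D8 replicate 2 in turn, the D8 difference was 0.82, 0.95, 0.94 and 0.93, and without Ctrl replicate 1, Ctrl replicate 2, DDR-Sen D16 replicate 1 and DDR-Sen D16 replicate 2 the D16 difference was 0.80, 0.93, 0.98 and 0.79. In RS the value rested on 1 library: without RS replicate 2 it was -0.11, and without RS replicate 1 it was 0.90 and passed the test (edgeR adjusted p = 0.0328).

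**Figure D3:**
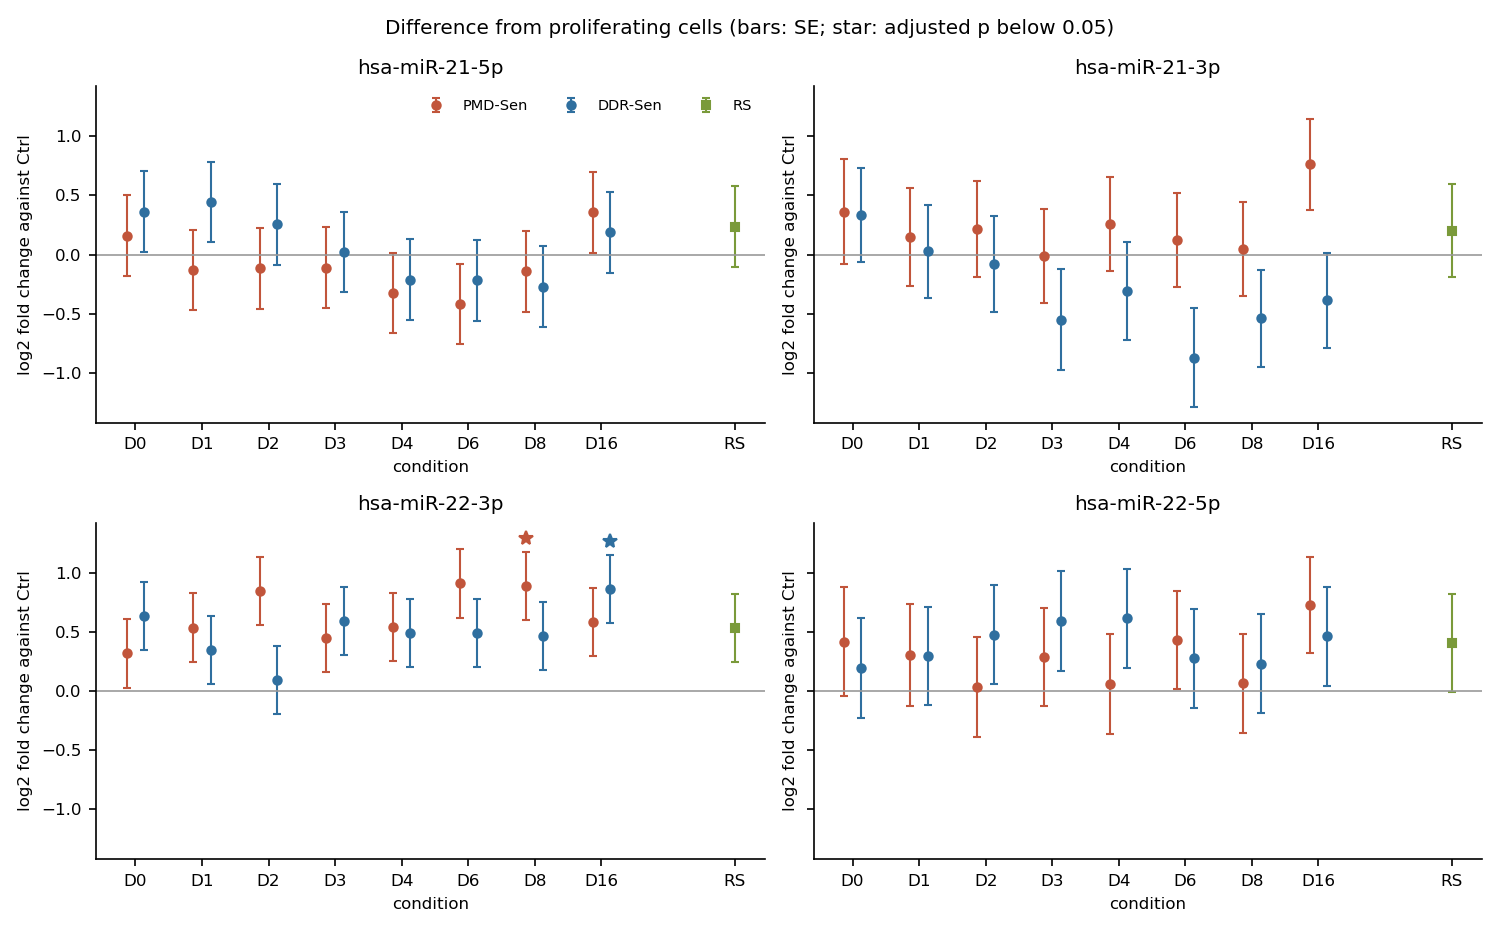
Log2 fold change against Ctrl (vertical axis) of each member at each day of PMD-Sen and DDR-Sen and in RS. Bars are SE from the fit of all 36 libraries and stars mark an adjusted p below 0.05; the 2 stars are for miR-22-3p, and all 17 of its points lie above 0.

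For the other 3 members, 0 of 17 comparisons passed the adjusted test. miR-21-5p stood at 60722 and 64525 CPM in Ctrl, and its log2 fold change ran from -0.42 (PMD-Sen D6) to 0.44 (DDR-Sen D1), above 0 in 8 comparisons and below 0 in 9. At D16 its difference from Ctrl was 0.36 in PMD-Sen (95% interval -0.34 to 1.05) and 0.19 in DDR-Sen (-0.51 to 0.88), and in RS it was 0.24 (-0.46 to 0.93). Each of these intervals spans 0 and has an upper end of 0.88 or more. Its sign in RS and at PMD-Sen D16 turned on 1 library: without RS replicate 2 the difference was -0.56, and without PMD-Sen D16 replicate 1 it was -0.09.

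miR-21-3p stood at 159 and 209 CPM in Ctrl and ranged from -0.88 (DDR-Sen D6) to 0.76 (PMD-Sen D16) in log2 fold change, above 0 in 10 of 17 comparisons. miR-22-5p stood at 202 and 237 CPM in Ctrl and had a positive value in 17 of 17 comparisons, from 0.03 (PMD-Sen D2) to 0.73 (PMD-Sen D16). At an unadjusted edgeR p below 0.05, miR-22-3p had 6 comparisons, miR-21-3p had 1 and the other 2 members had 0. DESeq2's Wald test with adjusted p called miR-22-3p in 3 of the 17 conditions and the other members in 0. For neither of these rules was the share of all tested miRNAs counted, so the numbers have no background here. By the study's thresholds, an unadjusted p below 0.05 and a fold change above 1 on the log2 scale, 0 of the 4 members was called in any of the 17 comparisons, where 9.89% of all tests passed.

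As background for these counts, the share of the 360 tested miRNAs with an edgeR adjusted p below 0.05 against Ctrl was, in percent, 0.278, 2.22, 2.5, 0.278, 3.89, 6.67, 10 and 16.7 for PMD-Sen, in order of day from D0 on. In DDR-Sen it was 0, 0.278, 0.278, 4.44, 6.67, 10.6, 11.4 and 22.8 on the same days, and in RS it was 22.5. At PMD-Sen D8 and DDR-Sen D16 the 1 called member of 4 thus stands beside 10% and 22.8% of all miRNAs.

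The second comparison follows each member through time. A slope on log2(day + 1), fitted by edgeR to the 32 libraries of both series, gives the log2 change for each doubling of (day + 1). miR-21-3p was the one member with a slope that passed the test. It fell in DDR-Sen by 0.22 per doubling (SE 0.075, 95% interval -0.37 to -0.07, edgeR adjusted p = 0.0216), where 24.7% of all tested miRNAs had a slope that passed. In PMD-Sen its slope was 0.09 (SE 0.078, edgeR adjusted p = 0.369). There 37.2% of all tested miRNAs passed and 0 of the 4 members did.

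The DDR-Sen values of miR-21-3p were 212 and 255 CPM on D0, 208 and 168 on D1, 218 and 129 on D2 and 137 and 114 on D3. They were 147 and 151 CPM on D4, 95.3 and 105 on D6, 129 and 125 on D8 and 124 and 157 on D16. Both D0 libraries lay above both Ctrl libraries, as for 18.9% of all tested miRNAs. On all 5 days from D3 to D16 both libraries lay below both Ctrl libraries, as for 12.2% of all tested miRNAs. The fall no longer passed in 3 reduced sets of libraries: without D0 the slope was -0.17 (edgeR adjusted p = 0.189), without DDR-Sen D0 replicate 2 it was -0.19 (adjusted p = 0.103) and without DDR-Sen D8 replicate 1 it was -0.21 (adjusted p = 0.0543). The fall also did not pass on linear days (edgeR adjusted p = 0.152) or with no filter (edgeR adjusted p = 0.0832). The slope in PMD-Sen exceeded that in DDR-Sen by 0.31 (SE 0.11, edgeR adjusted p = 0.0428). Of the 4 members, 1 had such a difference, against 14.2% of all tested miRNAs. This call was lost under 7 of 10 other settings and when any of 15 of the 32 libraries was left out, with values of 0.23 to 0.43 over all 32. The alternatives for this slope difference were not planned, and they are given for miR-21-3p alone.

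miR-21-5p had mean levels in DDR-Sen of 80484 CPM at D0 and 85243 CPM at D1, which were lower at each later day to 51875 CPM at D8, and 71283 CPM at D16. In PMD-Sen the mean was 69897 CPM at D0, 46849 CPM at D6 and 80154 CPM at D16. By these means both series were lowest at D6 or D8 and higher at D16, a difference that was not tested. In PMD-Sen the single libraries overlapped, with 67155 and 46415 CPM at D8 and 101307 and 59001 CPM at D16. The slope over all days was -0.12 in DDR-Sen (SE 0.066, edgeR adjusted p = 0.168) and 0.02 in PMD-Sen (SE 0.064, edgeR adjusted p = 0.861). With D16 left out, an alternative chosen after these levels were seen, the slopes were -0.25 in DDR-Sen (edgeR adjusted p = 0.00899) and -0.13 in PMD-Sen (edgeR adjusted p = 0.193). How many of all tested miRNAs had a slope that passed without D16 was not counted.

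For miR-22-3p the slope was 0.09 in PMD-Sen (SE 0.061, edgeR adjusted p = 0.243) and 0.06 in DDR-Sen (SE 0.056, edgeR adjusted p = 0.448). The slope of miR-22-5p in PMD-Sen was 0.08 and that in DDR-Sen 0.03, and neither passed (edgeR adjusted p of 0.481 and 0.758).

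The third comparison sets the 2 kinds of induction side by side at the same days. miR-21-3p was higher in PMD-Sen than in DDR-Sen, and was the one member whose mean difference over D1 to D16 passed the test. In PMD-Sen its libraries had 219 and 188 CPM on D1, 235 and 192 on D2, 214 and 149 on D3 and 237 and 203 on D4. They had 273 and 124 CPM on D6, 248 and 131 on D8 and 354 and 270.4 on D16. Over the 14 libraries of each series from D1 on, the lowest, median and highest values were 124, 217 and 354 CPM in PMD-Sen and 95.3, 133 and 218 CPM in DDR-Sen.

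The PMD-Sen mean of miR-21-3p was the higher one on 7 of 7 days, and on 5 of them (D3, D4, D6, D8 and D16) both PMD-Sen libraries lay above both DDR-Sen libraries. At least 5 such days were found for 5.56% of all tested miRNAs. How many had the higher PMD-Sen mean on 7 of 7 days was not counted. The mean difference was 0.61 on the log2 scale (SE 0.15, 95% interval 0.30 to 0.92) by edgeR's quasi-likelihood test, with an adjusted p of 0.00353, and 19.7% of all tested miRNAs passed that test. Total counts in place of TMM scaling gave 0.78. Leaving out D16, an alternative added after the data were seen, gave 0.52 (edgeR adjusted p = 0.0231). With only the second replicate of each condition it was 0.39 and no longer passed (edgeR adjusted p = 0.227), while with only the first it was 0.83 (adjusted p = 0.0237).

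At single days 0 of the 4 members passed the adjusted test, and the shares of all tested miRNAs that did were 1.67%, 1.94%, 4.44%, 0.833%, 3.33%, 0.278%, 0% and 0.556% from D0 to D16. The largest difference among the members was that of miR-21-3p at D16 (1.15, SE 0.38, edgeR adjusted p = 0.159), which passed the study's thresholds, as 4.72% of all tested miRNAs did. Its difference was 1.00 on D6 (edgeR adjusted p = 0.275) and 0.03 on D0 (edgeR adjusted p = 0.977). At an unadjusted edgeR p below 0.05, miR-21-3p had 2 of 8 days, miR-22-3p had 1 and the other members had 0. The share of all tested miRNAs at that unadjusted threshold was not counted.

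The other members showed no called difference between the series. For miR-21-5p, the guide arm of the hairpin of miR-21-3p, the mean difference was -0.16 (SE 0.13, 95% interval -0.42 to 0.11, edgeR adjusted p = 0.426). For miR-22-3p it was 0.20 (SE 0.11, 95% interval -0.02 to 0.42, edgeR adjusted p = 0.203), and for miR-22-5p it was -0.15 (SE 0.15, edgeR adjusted p = 0.564). On D2, D6 and D8 both PMD-Sen libraries of miR-22-3p lay above both DDR-Sen libraries, and 21.7% of all tested miRNAs had at least 3 such days. On D16 they lay below, as for 18.6% of all tested miRNAs. Over D1 to D16 the lowest, median and highest levels of miR-22-5p were 138, 272 and 433 CPM in PMD-Sen and 206, 285 and 404 CPM in DDR-Sen, so the ranges overlapped widely. The mean differences moved with the scaling, and the TMM factors had a median of 1.06 in PMD-Sen and 0.928 in DDR-Sen from D1 to D16. With total counts the difference of miR-22-3p was 0.38 and passed the test (edgeR adjusted p = 0.011), and those of miR-21-5p and miR-22-5p became 0.01 and 0.02. How many of all tested miRNAs passed with total counts was not counted.

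The ratio of the 2 arms within a library does not depend on the scaling. It was taken as log2 of the 5p count over the 3p count, each plus a pseudocount of 0.5, for the 86 hairpins with both arms tested, and compared with limma. The miR-21 hairpin had a mean log2 ratio of 8.42 over the 36 libraries, toward the 5p arm, and ranked 5 of the 86 hairpins by the size of its imbalance. The miR-22 hairpin had a mean of -5.49, toward the 3p arm, and ranked 25. The median size over the 86 hairpins was 3.77. The same arm was in excess in every library, with 7.60 to 9.31 for miR-21 and -6.42 to -4.02 for miR-22.

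The miR-21 ratio differed between the 2 kinds of induction. In Ctrl it was 8.56 and 8.26, and in RS it was 8.39 and 8.47. The PMD-Sen libraries had 8.45 and 7.60 on D1, 8.20 and 7.89 on D2, 8.06 and 8.60 on D3, 7.67 and 7.97 on D4, 7.68 and 8.23 on D6, 8.08 and 8.45 on D8 and 8.16 and 7.76 on D16. The DDR-Sen libraries had 8.95 and 8.64 on D1, 8.56 and 9.00 on D2, 8.98 and 8.94 on D3, 8.56 and 8.41 on D4, 9.31 and 8.76 on D6, 8.80 and 8.50 on D8 and 8.98 and 8.97 on D16. On 7 of 7 days both PMD-Sen libraries lay below both DDR-Sen libraries, which 1.16% of the 86 hairpins (miR-21 alone) showed. From D1 to D16 the libraries ranged from 7.60 to 8.60 in PMD-Sen and from 8.41 to 9.31 in DDR-Sen, so that the series overlapped when days were not matched. At D0 the values were 8.49 and 8.00 in PMD-Sen and 8.74 and 8.09 in DDR-Sen, and the groups overlapped.

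By limma with Benjamini-Hochberg adjustment over the 86 hairpins, the mean PMD-Sen minus DDR-Sen difference of the miR-21 ratio over D1 to D16 was -0.75 on the log2 scale (SE 0.13, adjusted p = 0.000243). Expressed as counts, there were 226 to 322 reads of miR-21-5p for each read of miR-21-3p in the PMD-Sen conditions from D1 on, and 358 to 525 in the DDR-Sen conditions. Of the 86 hairpins, 2.33% passed this test, miR-21 and 1 other, miR-423 (-0.43, SE 0.12, limma adjusted p = 0.0416), which is named because it passed. With any 1 of the 28 libraries left out the miR-21 difference stayed between -0.81 and -0.69 and past the threshold. For miR-22 the difference was -0.40 (SE 0.19, limma adjusted p = 0.253), and both PMD-Sen libraries lay below both DDR-Sen libraries on 4 of 7 days, and 9.3% of the 86 hairpins had at least 4 such days.

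**Figure D4:**
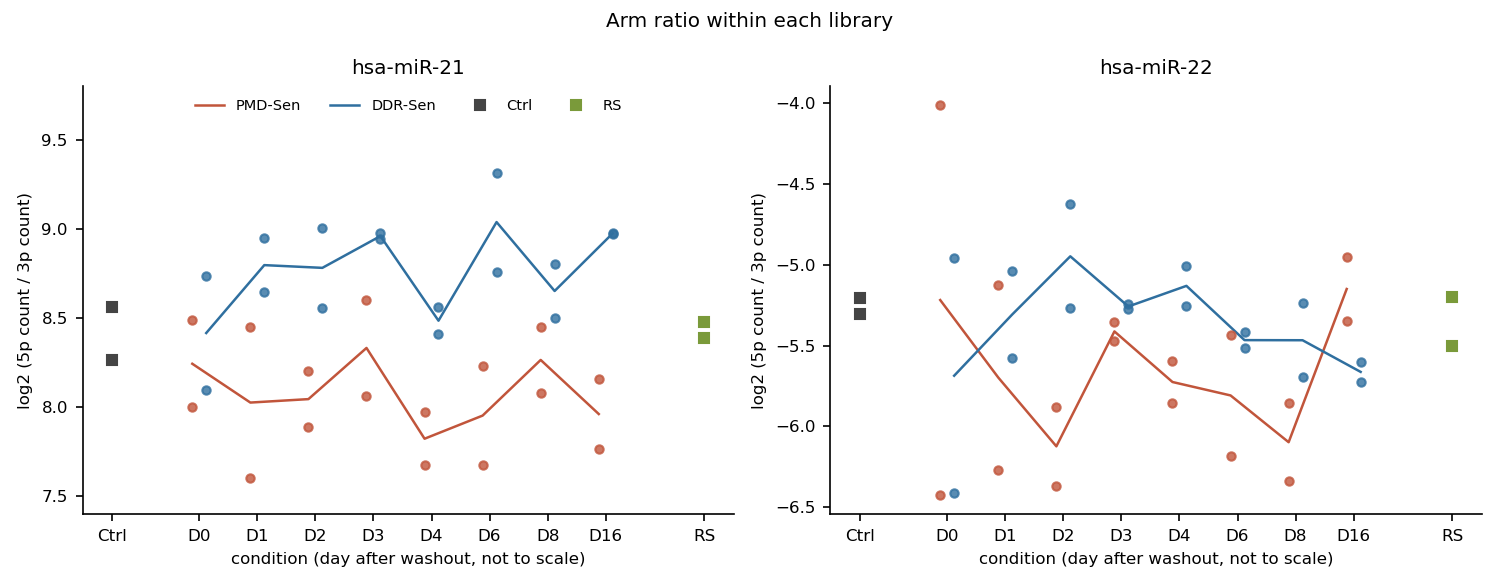
Log2 of the 5p count over the 3p count (vertical axis, pseudocount 0.5) of the miR-21 and miR-22 hairpins in Ctrl, in PMD-Sen and DDR-Sen by day and in RS. Points and squares are single libraries and lines join the means of the 2 libraries of a condition; from D1 to D16 both miR-21 points of PMD-Sen lie below both of DDR-Sen on each day.

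For neither hairpin did the arm ratio at D16 or in RS pass the test against Ctrl. For miR-21 the difference from Ctrl was -0.45 at PMD-Sen D16 (SE 0.34, limma adjusted p = 0.576), 0.56 at DDR-Sen D16 (SE 0.34, limma adjusted p = 0.384) and 0.02 in RS (SE 0.34, limma adjusted p = 0.965). For miR-22 it was 0.11, -0.40 and -0.09 in the same order (SE 0.51, limma adjusted p of 0.896, 0.745 and 0.931). The shares of hairpins that passed were 4.65%, 3.49% and 4.65%. The slopes of the ratio on log2(day + 1) were -0.04 and 0.10 for miR-21 in PMD-Sen and DDR-Sen (limma adjusted p of 0.704 and 0.642), and -0.02 and -0.03 for miR-22 (0.925 and 0.955), while 23.3% and 1.16% of the hairpins passed. So the distance of the miR-21 ratio between PMD-Sen and DDR-Sen was resolved, and its distance from Ctrl in either series at D16 was not. These tests differ in precision. The first is a mean over 7 days with 14 libraries per series (SE 0.13), and each D16 test sets 2 libraries against 2 (SE 0.34). No mean of a series over D1 to D16 was tested against Ctrl.

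The fourth comparison sets D16 of each series beside replicative senescence. Here 0 of 4 members passed, against 9.72% of all tested miRNAs for PMD-Sen D16 and 4.44% for DDR-Sen D16. The members' differences from RS were 0.12 for miR-21-5p, 0.56 for miR-21-3p, 0.05 for miR-22-3p and 0.33 for miR-22-5p at PMD-Sen D16 (lowest edgeR adjusted p = 0.354). For DDR-Sen D16 the values were -0.05, -0.59, 0.33 and 0.06 in the same order (lowest edgeR adjusted p = 0.475). The unadjusted edgeR p was below 0.05 for 0 of these 8 values, and the share of all tested miRNAs below it was not counted. The 95% interval of miR-21-3p was -0.20 to 1.32 at PMD-Sen D16 and -1.39 to 0.21 at DDR-Sen D16, and a difference of 1 on the log2 scale lay inside the first and one of -1 inside the second.

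Whether the arms of the same hairpin shared a pattern over the conditions was not tested. The correlations below cannot decide it, since the order of most conditions was not resolved. Over the 18 condition means of log2 CPM, Pearson's r between the arms was 0.33 for miR-21 and 0.05 for miR-22, and over the 36 libraries it was 0.54 and 0.09. Between hairpins, r over the conditions was -0.30 for miR-21-5p with miR-22-3p and 0.31 for miR-21-5p with miR-22-5p. The points share libraries and their scaling, so these are descriptions. Among 178 other miRNAs with a mean of at least 50 counts, the pattern of miR-21-5p over the 18 conditions was most like those of let-7i-5p (r = 0.77), miR-29a-3p (0.70) and miR-143-3p (0.69). For miR-21-3p the nearest were miR-28-5p (0.63), miR-503-5p (0.62) and miR-423-3p (0.62). For miR-22-3p they were miR-410-3p (0.76), miR-331-3p (0.70) and miR-376a-3p (0.68), and for miR-22-5p miR-151a-5p|hsa-miR-151b (0.74), miR-26a-5p (0.72) and miR-26b-5p (0.68). Counted together, miR-151a-5p and miR-151b could not be told apart in the table.

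Beside the members, a list of 20 other miRNAs linked to fibrosis or senescence was followed, of which 19 were tested. At PMD-Sen D16, 2 of the 19 rose and 2 fell against Ctrl, where 8.89% of all tested miRNAs rose and 7.78% fell, with a list median of 0.08 on the log2 scale against 0.05 over all 360 tested miRNAs. The lowest called was miR-155-5p, a miRNA of inflammatory signalling (-2.01, SE 0.26, edgeR adjusted p = 5.02e-06), and the highest called was miR-34a-5p, a target of p53 (0.82, SE 0.27, edgeR adjusted p = 0.0362). At DDR-Sen D16, 1 rose and 6 fell, where 11.1% of all rose and 11.7% fell, with a list median of -0.21 against -0.03, from miR-155-5p at -3.41 (SE 0.28, edgeR adjusted p = 1.2e-10) to miR-26a-5p at 0.54 (SE 0.19, edgeR adjusted p = 0.034). In RS, 2 rose and 5 fell, where 10.3% of all rose and 12.2% fell, with a list median of -0.21 against 0.12, from miR-199b-5p at -3.99 (SE 0.75, edgeR adjusted p = 0.00021) to miR-24-3p at 0.55 (SE 0.20, edgeR adjusted p = 0.0472). Against this list the 4 members had 1 rise and 0 falls at DDR-Sen D16 and 0 calls at PMD-Sen D16 and in RS.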

How the data were processed

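WI-38 small RNA libraries (NEXTFLEX small RNA kit, MiSeq) were processed by the authors with the exceRpt pipeline on GRCh38 and miRBase, and 1 table was deposited, holding expected counts of mature miRNAs for each library, not normalized. In it 1003 of 54288 values were not whole, none of them of a member. Here the counts were rounded, miRNAs were filtered with filterByExpr over the 18 conditions, and edgeR 4.0.16 (R 4.3.3; TMM scaling, quasi-likelihood test, 1 coefficient per condition, all 36 libraries) gave the comparisons with Benjamini-Hochberg adjustment over 360 miRNAs. The common biological coefficient of variation was 20.9%, with 18 residual degrees of freedom. Arm ratios were tested with limma 3.58.1. The steps were tested on simulated counts with changes larger than those of the members, and recovery of smaller changes was not tested. Groups and replicate numbers came from the labels, which call the replicates biological. CPM values of the members were taken on the TMM-scaled total, and their log2 CPM used a prior count of 2. The sums of cell type markers were taken on the unscaled library total.

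The named miRNAs are the members, for each the 3 miRNAs with the highest Pearson r among those with a mean of at least 50 counts, those of the same seed, and the highest and lowest called of the linked list at D16 and in RS. The members and lists were chosen with earlier results of these data known. Alternatives were other scalings and filters, DESeq2 1.42.0, no pooling of the spread, an additive model, other time scales, other pseudocounts, a replicate block and leaving out libraries or days.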

Additional observations from a re-analysis of the deposited data

Results flagged for a closer look

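Each of 3 differences between the series passed a test of the difference itself. miR-21-3p was higher in PMD-Sen than in DDR-Sen by 0.61 on the log2 scale as a mean over D1 to D16, a test that 19.7% of all tested miRNAs passed. Both PMD-Sen libraries lay above both DDR-Sen libraries on 5 of 7 days, and 5.56% of all tested miRNAs had at least 5 such days. With only the second replicate of each condition the difference was 0.39 and the call was lost. The slope of miR-21-3p on log2(day + 1) differed between the series by 0.31, as 14.2% of all tested miRNAs passed that test. This call was kept under 3 of 10 other settings, none of them planned. The log2 ratio of the 5p to the 3p arm of miR-21 was lower in PMD-Sen by 0.75 (a difference of -0.75). Both PMD-Sen libraries lay below both DDR-Sen libraries on 7 of 7 days, which 1.16% of the 86 hairpins showed. All 3 rest on the same miR-21-3p counts and are not independent of each other. From D1 to D16 the TMM factors had a median of 1.06 in PMD-Sen and of 0.928 in DDR-Sen. They enter the level of miR-21-3p and not the arm ratio, and with total counts in their place the first difference was 0.78.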

How the results depend on the processing

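Over 46 results, 600 of 677 alternatives kept the direction and the side of the threshold. For counts of called conditions, an equal or similar count was taken as kept. Many results were not called, and staying so counted as kept, so the share says little about the calls. The difference of the miR-21 arm ratio kept direction and side in every alternative run. For the ratio these were another pseudocount, a count filter on hairpins, the replicate block and single libraries left out. Leaving out a whole replicate number, which ended the call for the level of miR-21-3p, was not run on the ratio. The miR-22-3p calls at DDR-Sen D16 and PMD-Sen D8 were kept in 7 of 8 and 7 of 7 other settings. With a library left out, each was kept in 0 of 4 runs. The replicate block changed 0 of 46 results (miR-21-3p over D1 to D16: 0.60). The labels do not say that a replicate number marks a shared batch, so the numbers were not read as pairs. Between conditions the replicate-1 deviations correlated at a median of 0.041, with 53 of 153 pairs above 0.1 and a highest value of 0.37. Causes of the changes were not tested. Runs with D16 left out were added after the data were seen. The slope of miR-21-3p in DDR-Sen did not pass on linear days (-0.038), with no filter (-0.20) or without D0 (-0.17). In PMD-Sen it was -0.071 with D16 left out. Its slope difference was 0.26 with D16 left out, 0.34 without D0, 0.31 with DESeq2 size factors or without the top 10 miRNAs, 0.30 with a mean of 10 counts as filter, 0.29 with total counts and 0.072 on linear days. With D16 left out, slopes were -0.25 (DDR-Sen) and -0.13 (PMD-Sen) for miR-21-5p, -0.014 for miR-22-3p in DDR-Sen and -0.053 for miR-22-5p in PMD-Sen. The miR-21-5p slope in PMD-Sen was -0.015 with the mean filter and -0.0028 with total counts, and that of miR-22-5p in DDR-Sen was -0.011 without D0. With total counts the mean PMD-Sen and DDR-Sen differences were 0.0098 (miR-21-5p), 0.38 (miR-22-3p) and 0.023 (miR-22-5p), and miR-22-3p at DDR-Sen D16 was 0.80. With no filter miR-22-3p was 0.68 at PMD-Sen D16 and had a slope of 0.17 in PMD-Sen. With only the 4 libraries compared it was 0.47 at PMD-Sen D16. The study's thresholds gave it 0 calls.

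With libraries left out, miR-22-3p was 0.79 to 0.98 at DDR-Sen D16, 0.82 to 0.95 at PMD-Sen D8 and -0.11 to 0.90 in RS. In RS, miR-21-5p was -0.56 to 0.69, miR-21-3p -0.56 to 0.61 and miR-22-5p -0.054 to 0.65. At PMD-Sen D16, miR-21-5p was -0.086 to 0.69. The mean PMD-Sen and DDR-Sen difference was 0.39 to 0.83 for miR-21-3p, -0.30 to 0.0054 for miR-21-5p, 0.074 to 0.37 for miR-22-3p and -0.38 to 0.051 for miR-22-5p. Slopes in DDR-Sen were -0.29 to -0.19 for miR-21-3p, -0.19 to -0.10 for miR-21-5p and -0.014 to 0.060 for miR-22-5p. Slopes in PMD-Sen were 0.0043 to 0.20, -0.086 to 0.13 and -0.01 to 0.18 in the same order, and the slope difference of miR-21-3p was 0.23 to 0.43. Arm ratios were -0.13 to 0.17 in RS for miR-21, and for miR-22 -0.092 to 0.31 at PMD-Sen D16, -0.25 to 0.057 in RS, -0.12 to 0.18 for the PMD-Sen slope and -0.17 to 0.014 for the DDR-Sen slope.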
